A study of Mus musculus with 16 samples.

Results

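The genes described here are the 5 that encode the intermediate filament proteins of axons, namely Nefl, Nefm, Nefh, Ina and Prph. They were chosen by name, as a family, with earlier results of these data known, and are 5 of the 36528 gene identifiers counted in retinas of mice studied 3 days after crush of the optic nerve. Each was found in the files by its Entrez identifier, and all 5 passed the filter on low counts that left 19391 tested genes. Crush damages the axons of retinal ganglion cells, the output neurons of the eye, behind the retina that was sampled. The small molecule GNE-3511 inhibits dual leucine zipper kinase (DLK), through which axon damage is reported to the nucleus of the neuron.

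The 16 libraries of polyadenylated RNA fell into crushed retinas of mice given GNE-3511 (crushed DLKi, n = 5), crushed retinas of mice given the vehicle MCT (crushed vehicle, n = 3), uncrushed retinas of mice given GNE-3511 (uncrushed DLKi, n = 5) and uncrushed retinas of mice given MCT (uncrushed vehicle, n = 3). The inhibitor was given at 75 mg/kg at 60 h and 68 h, so it was absent for the first 60 h of the 3 days. The labels give 5 mice for each drug; of the vehicle retinas, 3 crushed and 3 uncrushed were analysed here. Strain, age and genotype are not stated in the labels, and neither is which retinas share a mouse. The p-values therefore measure only the spread between these samples. By the labels' count of 5 mice, the 5 crushed and 5 uncrushed DLKi retinas came from mice that each gave both retinas. Tests below treat all retinas as separate unless a pairing is named. Libraries held 22.35 to 44.75 M counts. Uncrushed vehicle replicate 1 was the shallowest of them and also had 4.539% of its counts in mitochondrial genes, against 2.021% to 3.133% in the other libraries. Crushed vehicle replicate 3 was the next shallowest, and values without either library are given where they change a call. Rods, the most abundant cells of the retina, were present in every library (10 markers summed to between 56700 and 73600 CPM, that is counts per M counts of the library), as were all 18 ganglion cell markers in every group.

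Neurofilaments are the main structural polymers of large axons and help to set their calibre. The light subunit (Nefl) forms the core, the medium (Nefm) and heavy (Nefh) subunits add long side arms that are phosphorylated at Lys-Ser-Pro triplets, and alpha-internexin (Ina) co-assembles with them in central neurons. Peripherin (Prph) is best known from peripheral neurons and from central neurons with axons outside the brain. In the retina these genes are used mostly by ganglion cells, whose large alpha types are rich in Nefh, and to a lesser degree by horizontal cells.

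The members lie at 4 places in the genome (GRCm38, RefSeq coordinates). Nefl (Entrez 18039) is at chr14:68083863-68089095 on the plus strand, and Nefm (Entrez 18040) at chr14:68119545-68125004 on the minus strand, 30450 bases away. Nefh (Entrez 380684) is at chr11:4938754-4948064 on the minus strand, Ina (Entrez 226180) at chr19:47014681-47025327 on the plus strand and Prph (Entrez 19132) at chr15:99053579-99058978 on the plus strand. In the GENCODE annotation of the same build, 32.781% of the exon length of Nefl is overlapped by exons of a Nefm transcript on the opposite strand, and 14.074% of that of Ina by Nt5c2. The library kit does not mark strand, so reads in those stretches cannot be told apart. The overlap with Nefl is mutual and comes from a Nefm transcript that reaches beyond the RefSeq locus of Nefm. Within the RefSeq loci of Nefm, Nefh and Prph, no exon of another gene overlapped theirs.

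The coding sequence of Nefh differs most from the rest. It held 51 triplets of codons for lysine, serine and proline, against 4 in Nefm and 0 in Nefl, Ina and Prph. A stretch of 120 bases from this repeat is shown because Nefh is the member that changed most. It covers codons 521 to 560, lies in an exon at chr11:4940938-4941057 on the minus strand (GRCm38, GENCODE), and is written 5′ to 3′ with its 7 triplets in capitals.

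Nefh: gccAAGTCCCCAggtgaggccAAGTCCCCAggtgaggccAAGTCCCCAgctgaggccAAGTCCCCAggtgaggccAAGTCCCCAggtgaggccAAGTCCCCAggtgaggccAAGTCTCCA

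Such repeats bear on counting with reads of 50 bases. Of all runs of 50 bases in the Nefh transcript 3.8% occurred more than once within it, and 0% occurred in another gene. The share found in another gene was 31.8% for Nefl and 12.8% for Ina, in the overlaps with Nefm and Nt5c2, and 0% for Prph and for the Nefm transcript that does not reach Nefl.

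Of the members, Ina and Prph matched the RefSeq table of promoters (GRCm38.p6, 250 bases before to 50 bases after the gene start). Nefl, Nefm and Nefh did not. Both windows are shown because Ina fell after crush in DLKi retinas while Prph did not pass the test in any comparison. Their changes were not shown to differ. The log2 ratio of Ina to Prph had a mean difference of -0.23 after crush (exact permutation test described below, adjusted p = 0.242). The Ina window is chr19:47014431-47014730 on the plus strand with GC boxes in capitals, and the Prph window is chr15:99054924-99055223 on the plus strand with the TATA box in capitals. The Prph window belongs to a start at base 99055174 of chromosome 15, 1595 bases inside the RefSeq locus given above, and positions in it are counted from that start.

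Ina: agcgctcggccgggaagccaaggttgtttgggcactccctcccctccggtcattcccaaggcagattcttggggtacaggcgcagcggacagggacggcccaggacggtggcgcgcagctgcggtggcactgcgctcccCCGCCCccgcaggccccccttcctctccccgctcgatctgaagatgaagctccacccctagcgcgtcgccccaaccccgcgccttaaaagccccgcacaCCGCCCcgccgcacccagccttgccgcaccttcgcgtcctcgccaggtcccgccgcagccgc
Prph: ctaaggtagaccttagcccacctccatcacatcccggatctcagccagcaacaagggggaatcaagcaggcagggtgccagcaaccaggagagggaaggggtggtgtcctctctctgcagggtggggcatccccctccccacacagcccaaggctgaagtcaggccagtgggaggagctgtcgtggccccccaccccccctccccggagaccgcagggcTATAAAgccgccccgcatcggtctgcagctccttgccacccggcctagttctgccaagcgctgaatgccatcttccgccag

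Motifs were searched on both strands. TATAAA (the TATA box) was found in the Prph window, 31 bases before the start, and not in that of Ina, and 13.6% of 32851 promoter windows held it. GGGCGG (the GC box) occurred on the minus strand at 111 and 12 bases before the Ina start and at 24 bases before the Prph start, and 35.7% of windows held it. CANNTG (the E-box) was found once in the Ina window, 135 bases before the start, and in 72.3% of all windows. TGANTCA (AP-1), TGACGTCA (the cyclic AMP response element) and ATAATTAAT (POU4F) were in neither window, and 7.81%, 1.79% and 0.274% of all windows held them. No pair of these matches overlapped.

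The order of the levels was the same in all 16 libraries, with Nefl highest, then Nefm, Ina, Nefh and Prph. Levels are given in nRPKM, the authors' reads per kilobase and per M reads (RPKM) after scaling by a size factor for each library. Nefl made up 64.1% ± 1.0 of the summed nRPKM of the members in crushed DLKi retinas (SD, n = 5), 67.2% ± 2.6 in crushed vehicle retinas (n = 3), 63.6% ± 1.44 in uncrushed DLKi (n = 5) and 68.7% ± 4.48 in uncrushed vehicle retinas (n = 3). Between libraries of a group the ranges of Nefm and Ina overlapped in all groups but crushed DLKi, and those of Ina and Nefh in uncrushed vehicle retinas. Prph stood at 0.903 to 3.06 nRPKM, with 64 to 323 counts a library, so its values carry the most counting error. The position of Nefh depends on the gene length used. With GENCODE exon lengths in place of the authors' models, Nefh stood at 41.7 CPM per kilobase in uncrushed DLKi and 32.4 in uncrushed vehicle retinas, above Ina with 38.0 and 29.6. In crushed retinas Ina stayed above Nefh on that scale too, with 23.7 against 15.1 in DLKi and 20.9 against 11.7 in vehicle retinas.

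After crush most filament genes fell with the inhibitor, fewer passed the test with vehicle, and the amounts were unequal. With the inhibitor 4 of 5 fell (Nefl, Nefm, Nefh and Ina), with a median log2 change of -0.68 over the 5, while 2.04% of all tested genes were called lower and 5.33% were called in either direction. With vehicle 2 of 5 fell (Nefl and Nefh), with a median of -0.50, while 0.861% of all genes were called lower and 2.63% in either direction. The median change of all tested genes was -0.0012 with the inhibitor and -0.0028 with vehicle. A gene is called here at an adjusted p of 0.05 or less in edgeR's quasi-likelihood test with Benjamini-Hochberg adjustment over all tested genes, two-sided. Every adjusted p for a gene below is from that test unless another is named. In RNA of whole retina, fewer ganglion cells and less RNA per ganglion cell cannot be told apart.

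**Figure D1:**
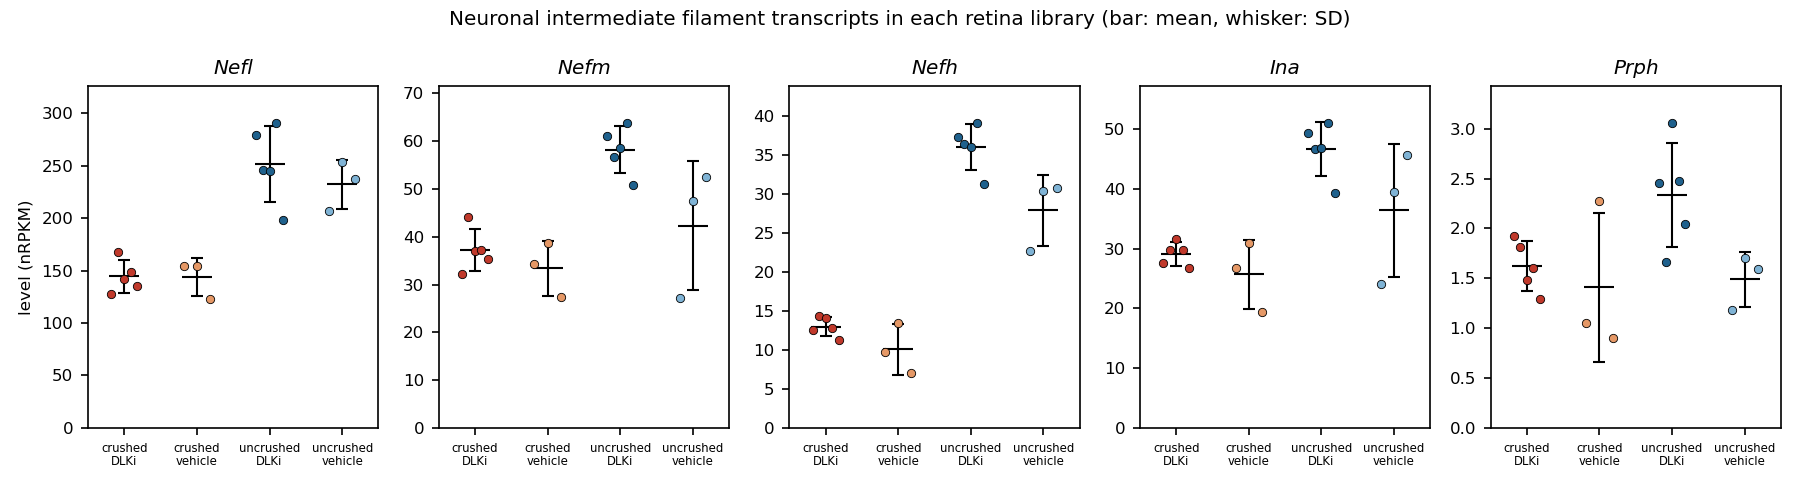
Level in nRPKM (vertical axes, from 0, a scale for each gene) of the 5 filament genes in each of the 16 libraries, by group; each point is a library, the bar the group mean and the whisker the SD. Nefh in crushed retina, at 6.99 to 14.3 nRPKM, lies below all uncrushed retinas, at 22.6 to 39.1 nRPKM, and Prph overlaps between groups.

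Nefl, the core subunit, stood at 128, 168, 142, 149 and 135 nRPKM in the crushed DLKi libraries and at 279, 246, 245, 291 and 198 nRPKM in the uncrushed DLKi libraries. With vehicle it stood at 154, 154 and 123 nRPKM in crushed and at 207, 253 and 237 nRPKM in uncrushed retinas. Under either drug every crushed library was below every uncrushed one. Nefl fell to 57.6% of the uncrushed level with the inhibitor (95% interval 49.5 to 66.9%; log2 change -0.80 ± 0.10 SE, adjusted p = 0.000108). It fell to 61.8% with vehicle (50.9 to 75.0%; -0.69 ± 0.13, adjusted p = 0.00614). Both calls held whichever library was left out, with adjusted p of at most 0.000583 with the inhibitor and 0.0389 with vehicle.

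Nefm, the medium side-arm subunit, had 32.2, 44.1, 37.0, 37.3 and 35.3 nRPKM in crushed DLKi retinas, all below the 61.2, 56.8, 58.6, 63.9 and 50.8 nRPKM of uncrushed DLKi retinas. With vehicle it had 34.3, 38.7 and 27.3 nRPKM in crushed and 27.1, 47.4 and 52.5 nRPKM in uncrushed retinas. The lowest of these values came from an uncrushed retina, replicate 1, so the vehicle groups overlapped. Nefm fell to 64.0% with the inhibitor (log2 change -0.64 ± 0.14, adjusted p = 0.00832), while its log2 change with vehicle was -0.34 ± 0.18 (adjusted p = 0.581).

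Without uncrushed vehicle replicate 1, the library with the high mitochondrial share, Nefm fell with vehicle too (log2 change -0.58, adjusted p = 0.0241). Without both of the shallowest vehicle libraries 3 of 5 members were called lower with vehicle, and Nefm was not among them. In uncrushed vehicle replicate 1 Nefm was at 54.1% of the mean of the other 2 of its group, Ina at 56.6%, Nefh at 74.2%, Prph at 71.6% and Nefl at 84.4%. Its 18 ganglion cell markers averaged 4.55 log2 CPM, against 5.09 and 5.20 in replicates 2 and 3. The part of sample quality in this was not tested.

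Nefh, the heavy subunit, had the largest change of the 5 in both crush comparisons. Its levels were 12.5, 14.3, 14.1, 12.8 and 11.2 nRPKM in crushed DLKi and 37.3, 36.3, 36.0, 39.1 and 31.2 nRPKM in uncrushed DLKi retinas. With vehicle they were 9.70, 13.5 and 6.99 nRPKM in crushed and 22.6, 30.3 and 30.7 nRPKM in uncrushed retinas. Crushed and uncrushed libraries did not overlap under either drug. Nefh fell to 36.2% of the uncrushed level with the inhibitor (95% interval 29.8 to 43.9%, adjusted p = 2.57e-06). With vehicle it also fell to 36.2% (28.2 to 46.6%, adjusted p = 8.23e-05).

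Ina, the internexin that joins these filaments in central neurons, had 27.6, 29.7, 31.7, 29.8 and 26.8 nRPKM in crushed DLKi and 49.4, 46.7, 46.8, 51.1 and 39.3 nRPKM in uncrushed DLKi retinas. With vehicle it had 26.8, 30.9 and 19.4 nRPKM in crushed and 24.1, 39.5 and 45.6 nRPKM in uncrushed retinas. The DLKi groups did not overlap and the vehicle groups did, again through uncrushed replicate 1. Ina fell to 62.5% with the inhibitor (log2 change -0.68 ± 0.14, adjusted p = 0.00531). With vehicle its log2 change was -0.50 ± 0.18 (adjusted p = 0.215), and it passed the test without uncrushed vehicle replicate 1 (-0.72, adjusted p = 0.00773) and without both of the shallowest vehicle libraries (-0.56, adjusted p = 0.0168).

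Prph, the peripherin gene, had 1.92, 1.81, 1.48, 1.60 and 1.29 nRPKM in crushed DLKi and 2.45, 1.66, 3.06, 2.47 and 2.04 nRPKM in uncrushed DLKi retinas. With vehicle it had 1.05, 2.27 and 0.903 nRPKM in crushed and 1.18, 1.70 and 1.59 nRPKM in uncrushed retinas. The groups overlapped under both drugs, and the highest vehicle value was a crushed retina. Its log2 change was -0.53 with the inhibitor (95% interval -0.98 to -0.08, adjusted p = 0.231) and -0.07 with vehicle (-0.68 to 0.53, adjusted p = 0.99). Leaving out single libraries moved the vehicle value between -0.62 and 0.16, so its direction there depended on single retinas, namely crushed vehicle replicates 1 and 3 and uncrushed vehicle replicate 2. Of 7 tested markers of peripheral nerve and muscle, tissues that could carry Prph into a sample, 0 were called after crush under either drug (edgeR; 1 at an unadjusted p under 0.05 with the inhibitor and 0 with vehicle; 0 by DESeq2 and 0 by limma).

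In the DLKi crush comparison 4 of 5 members had every crushed library below every uncrushed one, against 3.3% of all genes. In the vehicle comparison 2 of 5 did, against 4.75% of all genes. The calls with the inhibitor held in every fit that left out 1 library, and with vehicle 2 to 4 members were called in such fits.

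**Figure D2:**
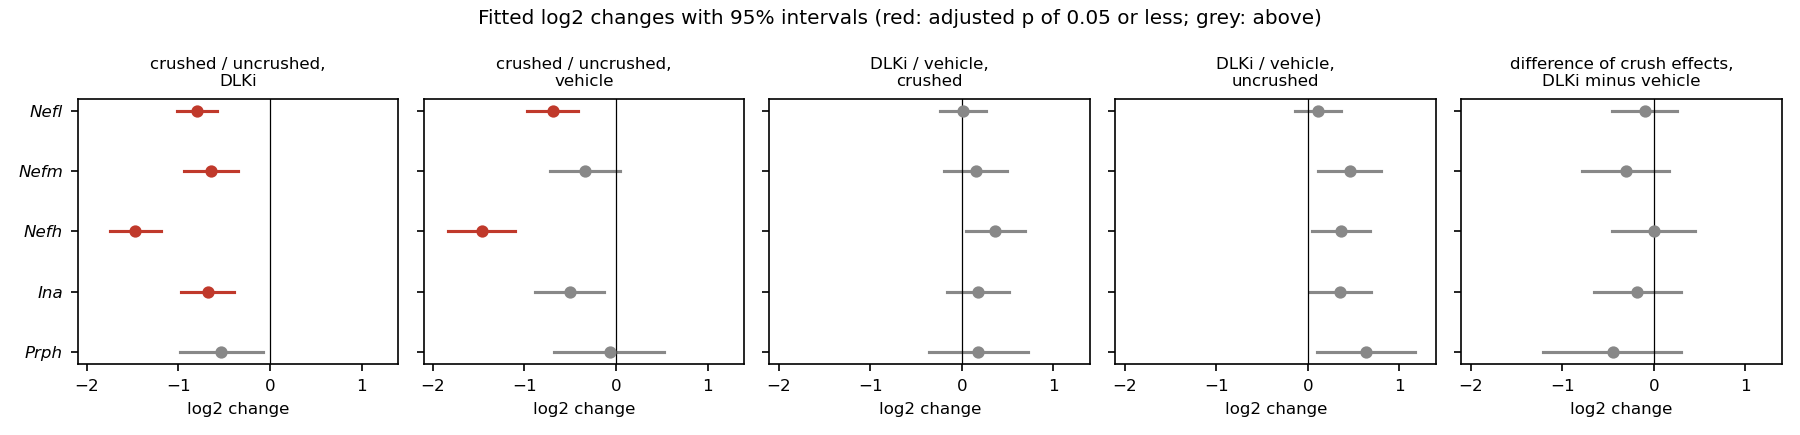
Fitted log2 change (horizontal axes) of each filament gene in the 5 comparisons, with 95% intervals; red marks an adjusted p of 0.05 or less. The crush effects on Nefh, -1.47 with DLKi and -1.46 with vehicle, lie farthest from 0, and no interval in the 3 comparisons on the right is marked red.

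Because a ratio within a library cancels its depth, ratios show whether members changed by unequal amounts. Crush labels were permuted within each drug in an exact permutation test of the mean of both drugs' differences (two-sided, 5040 arrangements, adjusted over 10 pairs). Nefh fell relative to each of the other members, with mean log2 differences of -0.74 against Nefl, -1.01 against Nefm, -0.91 against Ina and -1.14 against Prph. In each of these 4 the exact permutation p was 0.000397, the smallest the test can give, and the adjusted p was 0.000992. The log2 ratio of Nefh to Nefl averaged -3.48 ± 0.12 in crushed DLKi against -2.80 ± 0.10 in uncrushed DLKi retinas (SD, n = 5 each). With vehicle it averaged -3.88 ± 0.33 in crushed against -3.07 ± 0.12 in uncrushed retinas (SD, n = 3 each). The difference within DLKi retinas was -0.68 (exact permutation p = 0.0079) and that within vehicle retinas -0.81 (exact permutation p = 0.1, the smallest that 3 against 3 allows).

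As a share of the summed nRPKM of the 5 genes, Nefh made up 5.77% ± 0.404 in crushed DLKi and 9.15% ± 0.437 in uncrushed DLKi retinas. With vehicle its share was 4.63% ± 0.914 in crushed and 8.17% ± 0.167 in uncrushed retinas. The highest share in any crushed library was 6.23% and the lowest in any uncrushed library was 8.03%. The sum itself was 226 ± 21.7 nRPKM in crushed DLKi, 214 ± 32.6 in crushed vehicle retinas, 395 ± 48.6 in uncrushed DLKi and 341 ± 50.8 in uncrushed vehicle retinas.

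Nefl also fell relative to its neighbour Nefm, by less, with a mean log2 difference of -0.27 (exact permutation p = 0.00278, adjusted p = 0.00556). The difference was -0.14 with the inhibitor and -0.40 with vehicle, where Nefl stood at 7.65 times Nefm in uncrushed replicate 1, against 5.34 and 4.52 times in replicates 2 and 3. Leaving out crushed vehicle replicate 1, 2 or 3 took this adjusted p to 0.0767, 0.102 and 0.0787. The other 5 pairs had adjusted p between 0.0536 and 0.525. Nefm and Ina kept the most even ratio of the 10, with a mean log2 difference of 0.10 and SDs of 0.03 to 0.14 within groups. Their difference was 0.03 within DLKi retinas (exact permutation p = 0.7619). Within vehicle retinas it was 0.18 (exact permutation p = 0.1, the smallest that 3 against 3 allows).

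**Figure D3:**
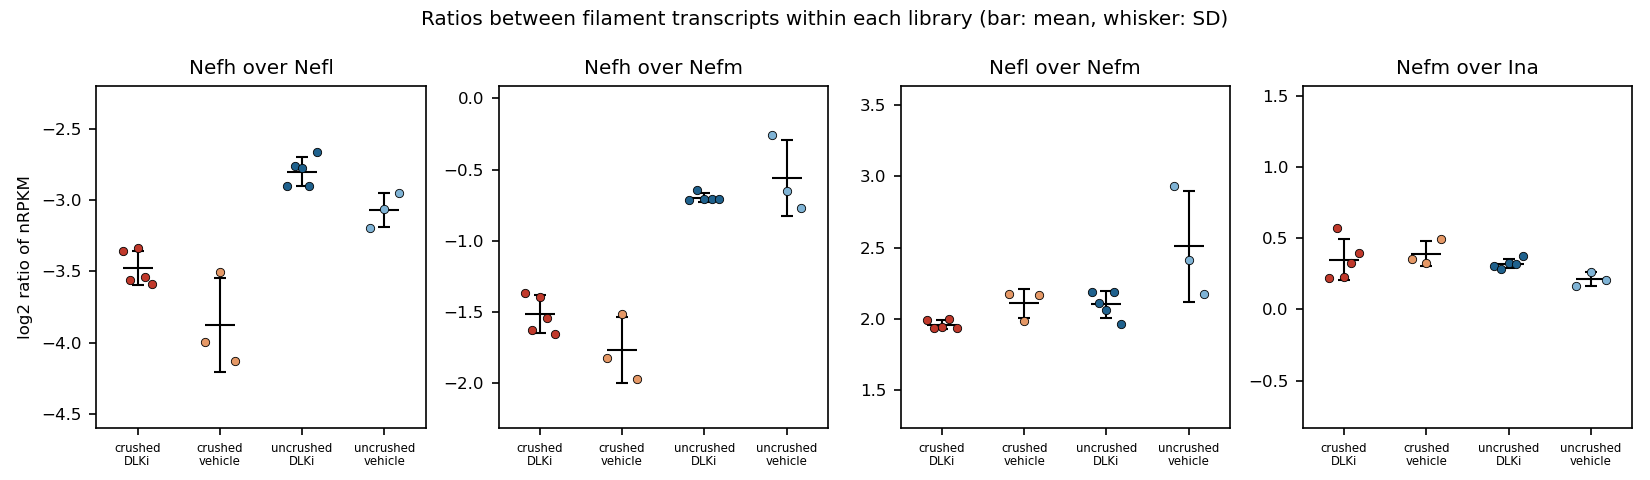
Log2 ratio of nRPKM (vertical axes, each spanning the same range) between pairs of filament genes in each library; each point is a library, the bar the group mean and the whisker the SD. The ratios of Nefh to Nefl and to Nefm separate crushed from uncrushed libraries. The ratio of Nefm to Ina separates them within vehicle retinas only and overlaps within DLKi retinas.

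Axon injury lowers many transcripts of ganglion cells, so the members were also set against 18 ganglion cell markers (RNA-binding, transcription factor, receptor and synuclein genes of these cells). Of the markers 11 of 18 fell with the inhibitor and 10 of 18 with vehicle, and their median log2 changes were -0.61 and -0.80. Their summed level was 754 to 840 CPM in crushed DLKi and 550 to 770 in crushed vehicle retinas, against 1030 to 1260 in uncrushed DLKi and 785 to 1120 in uncrushed vehicle retinas. Relative to the mean log2 CPM of these markers, Nefh fell by 0.68 (exact permutation p = 0.000397, adjusted p = 0.00198 over the 5 members), by 0.76 with the inhibitor and by 0.60 with vehicle. Nefl had a difference of 0.06 (exact permutation p = 0.625). The mean covers markers with unlike changes, named here after their values were seen. Pvalb (log2 change -2.01 with the inhibitor and -2.17 with vehicle) and Rbpms2 (-1.66 and -1.65) fell more than Nefh (-1.47 and -1.46). Isl2 (-1.7) and Pou4f2 (-1.77) did so with vehicle only. The other markers fell less than Nefh or not at all, with -0.01 and 0.07 for Slc17a6.

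Relative to the same markers the other members were higher after crush. The mean log2 differences were 0.33 for Nefm, 0.23 for Ina and 0.46 for Prph, with an adjusted exact permutation p of 0.0288 for each. In DLKi retinas the differences were 0.05, 0.03 and 0.20 (exact permutation p between 0.3016 and 0.4603), and in vehicle retinas 0.60, 0.42 and 0.72 (exact permutation p = 0.1 for each, the smallest possible). Whether the drugs differed in this was not tested. None of the 3 passed without crushed DLKi replicate 4 (adjusted p = 0.0575, 0.059 and 0.0516) or without the 2 shallowest vehicle libraries (adjusted p = 0.0959 for each).

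**Figure D4:**
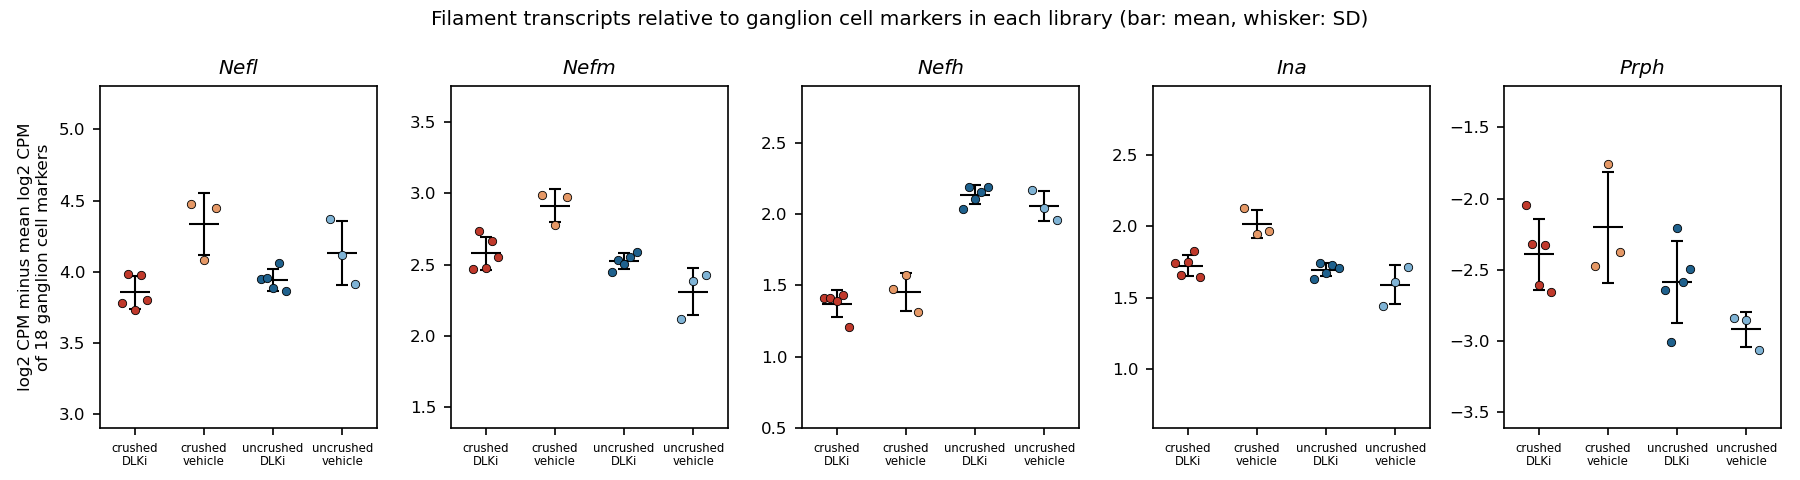
Log2 CPM of each filament gene minus the mean log2 CPM of 18 ganglion cell markers (vertical axes, each spanning the same range) in each library; bars and whiskers are group means and SD. Nefh is lower in every crushed library than in every uncrushed one, with group means of 1.37 and 1.45 in crushed DLKi and crushed vehicle retinas and 2.14 and 2.06 in uncrushed DLKi and uncrushed vehicle retinas.

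Nefh is a known label of alpha ganglion cells, and 6 other genes of those cells were looked at. Opn4 is in this list and also among the ganglion cell markers above. With the inhibitor 2 had positive changes (median log2 change -0.09), and with vehicle 4 (0.18). Summed, they stood at 95.4 to 109 CPM in crushed DLKi against 79.4 to 93.0 in uncrushed DLKi retinas. In vehicle retinas the sums were 87.4 to 110 CPM in crushed against 60.4 to 78.8 in uncrushed. These sums include Spp1, the only gene of the list called higher under either drug. Kcng4, Il1rapl2 and Fes were not called under either drug. Spp1 (osteopontin, also made by activated microglia) rose, with log2 changes of 0.76 ± 0.09 with the inhibitor and 1.03 ± 0.12 with vehicle (adjusted p = 5.51e-05 and 8.25e-05). Kcnip2, a potassium channel partner, fell by 0.61 with the inhibitor and 0.52 with vehicle on the log2 scale (adjusted p = 0.000128 and 0.00993). In vehicle retinas the Kcnip2 call ended without crushed replicate 1 or uncrushed replicate 2 or 3, and Opn4 (melanopsin) was the other gene of this list that fell, in DLKi retinas. Horizontal cell markers, for the other filament-bearing cells of the retina, had 1 of 9 called with the inhibitor (Calb1, lower) and 0 of 9 with vehicle (edgeR; 1 at an unadjusted p under 0.05, 1 by DESeq2, 0 by limma). Their summed level was 785 to 861 CPM in crushed DLKi, 760 to 858 in crushed vehicle retinas, 799 to 884 in uncrushed DLKi and 685 to 856 in uncrushed vehicle retinas.

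Markers of other cells moved with crush as well. Of 12 microglia markers 9 rose with the inhibitor and 5 with vehicle, their summed level being 69.9 to 135 CPM in crushed DLKi, 89.6 to 110 in crushed vehicle retinas, 42.3 to 65.0 in uncrushed DLKi and 56.0 to 57.4 in uncrushed vehicle retinas. Of 16 tested lens markers 9 fell with the inhibitor (edgeR; 11 by DESeq2, 1 by limma) and 0 with vehicle (edgeR; 8 at an unadjusted p under 0.05; 1 by DESeq2, 0 by limma). The count with the inhibitor was 0 to 13 when single libraries were left out. It was 0 without crushed DLKi replicate 2, 3 or 4 or uncrushed DLKi replicate 5, 1 without crushed DLKi replicate 1, 2 without uncrushed DLKi replicate 3 and 3 without crushed DLKi replicate 5. The lens markers had sums of 5.41 to 37.7 CPM in crushed DLKi, 3.11 to 29.8 in crushed vehicle retinas, 23.4 to 842 in uncrushed DLKi and 4.08 to 362 in uncrushed vehicle retinas. None of the markers of either list was at 0 throughout a group. Without the 3 libraries richest in lens transcripts the same members were called under each drug. The part of the microglia markers in the changes of the filament genes was not tested.

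The inhibitor moved none of the 5 members past the test. In crushed retina 0 of 5 were called, against 0.505% of all genes (edgeR; 1 at an unadjusted p under 0.05; 0 by DESeq2 and 0 by limma), and the median log2 change was 0.18. No member had every DLKi library above every vehicle library, against 4.68% of all genes. Nefh came nearest, at 13.0 ± 1.25 nRPKM in crushed DLKi against 10.1 ± 3.30 in crushed vehicle retinas (log2 change 0.36, 95% interval 0.04 to 0.69, adjusted p = 0.308). Nefl was at 145 ± 15.5 against 144 ± 18.2 nRPKM (0.01, interval -0.24 to 0.26). The intervals were -0.19 to 0.49 for Nefm, -0.16 to 0.52 for Ina and -0.36 to 0.72 for Prph. In the same comparison all 18 ganglion cell markers had positive changes, with a median of 0.29, and 3 of them were called higher (edgeR; 4 by DESeq2, 3 by limma). They were the transcription factor genes Isl2 (log2 change 1.37 ± 0.19, adjusted p = 0.0032), Pou4f1 (1.39 ± 0.23, adjusted p = 0.0108) and Pou4f2 (1.37 ± 0.27, adjusted p = 0.0277). Without crushed vehicle replicate 1 only Isl2 was called, and without crushed vehicle replicate 2 the count was 5. Their part in the values of the filament genes was not tested.

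In uncrushed retina 0 of 5 were called, against 0.629% of all genes (edgeR; 4 at an unadjusted p under 0.05; 0 by DESeq2 and 0 by limma). All 5 fitted changes were positive, with a median log2 change of 0.36 and adjusted p between 0.182 and 0.646. Nefm averaged 58.3 ± 4.93 nRPKM in DLKi against 42.3 ± 13.5 in vehicle retinas (log2 change 0.46, 95% interval 0.11 to 0.80). Nefh, at 36.0 ± 2.92 against 27.9 ± 4.55 nRPKM (0.36, interval 0.05 to 0.68), was the 1 member of 5 with no overlap, which 5.24% of all genes also showed in this direction. Without uncrushed vehicle replicate 1 the log2 change of Nefm was 0.22 and that of Ina 0.13. In the same comparison all 18 ganglion cell markers and all 14 amacrine cell markers had positive changes, with medians of 0.28 and 0.20. None was called by edgeR, DESeq2 or limma, and 4 of the ganglion cell and 1 of the amacrine cell markers had an unadjusted p under 0.05 in edgeR. Their part in the values of the filament genes was not tested.

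The crush effect on the members was not shown to differ between drugs. Of the 5, 0 were called in the test of the difference, against 0.0103% of all genes (edgeR; 0 at an unadjusted p under 0.05; 0 by DESeq2 and 0 by limma). For Nefh the crush effects of -1.47 with the inhibitor and -1.46 with vehicle differed by -0.00 (95% interval -0.46 to 0.45). The differences were -0.10 for Nefl (interval -0.46 to 0.25), -0.30 for Nefm (-0.78 to 0.17), -0.18 for Ina (-0.65 to 0.30) and -0.45 for Prph (-1.21 to 0.30).

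The genes whose pattern over the 16 libraries was most like each member were found among 15017 genes by the root mean square distance between centred log2 CPM. Nefh was closest to Chrna6, a nicotinic receptor subunit of ganglion cells (0.132), Sptssb, a subunit of the enzyme that starts sphingolipid synthesis (0.141), and Rbpms2, an RNA-binding protein of ganglion cells (0.178), whose log2 changes were -1.36, -1.55 and -1.66 with the inhibitor and -1.42, -1.59 and -1.65 with vehicle. Nefl was closest to the actin-regulating kinase gene Limk1 (0.116), the pannexin channel gene Panx2 (0.118) and Bend6 (0.124). Nefm was closest to Ube2ql1 (0.087), to Thy1, a surface glycoprotein of ganglion cells (0.092), and to Ina (0.101). Ina was closest to Ube2ql1 (0.065), the sodium channel subunit gene Scn2b (0.086) and the phospholipase gene Plcb1 (0.094), with Nefm at rank 8. Prph had no close match, its nearest being Lhfpl5 (0.23), Tubb2a (0.236) and Acot7 (0.241). Nefl, the nearest member to Nefh, ranked 72 in the list of Nefh (0.425).

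Neighbours were protein-coding genes that did not overlap the member in RefSeq coordinates. Nt5c2, which overlaps Ina, was therefore left out, and its change is not given here. Among the 3 nearest neighbours on each side of every member, no tested gene was called in a crush effect other than Nefl and Nefm, which neighbour each other. Thoc5, 9887 bases from Nefh, had log2 changes of -0.08 ± 0.05 with the inhibitor and -0.12 ± 0.07 with vehicle. Pcgf6, 8290 bases from Ina, had -0.01 ± 0.07 and -0.02 ± 0.09.

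Of 18 non-neuronal filament and lamin genes, 5 rose and 2 fell with the inhibitor and 3 rose and 0 fell with vehicle, with median log2 changes of 0.11 and 0.04. Gfap, the filament of reactive astrocytes and Müller glia, was at 13.8 to 38.8 nRPKM in crushed DLKi, 23.3 to 29.2 in crushed vehicle retinas, 4.70 to 9.05 in uncrushed DLKi and 5.66 to 8.28 in uncrushed vehicle retinas. It rose by 1.85 ± 0.24 on the log2 scale with the inhibitor and 1.97 ± 0.31 with vehicle (adjusted p = 0.000101 and 0.00126). Vim (vimentin) rose by 0.75 ± 0.12 and 0.82 ± 0.16, and Nes (nestin) by 1.18 ± 0.23 and 1.56 ± 0.29. Without the 2 shallowest vehicle libraries 1 of these 3 genes was still called with vehicle.

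The other called members of that list, named after their values were seen, were the skin keratin genes Krt5 and Krt14 (higher) and the lens filament genes Bfsp1 and Bfsp2 (lower), all in DLKi retinas. Krt5 ranged from 0.012 to 14.3 nRPKM with a median of 0.532 in crushed DLKi retinas, and from 0 to 0.32 nRPKM in uncrushed DLKi retinas. Lmnb1, which encodes the nuclear lamin B1, was lower with the inhibitor in crushed (log2 change -0.34 ± 0.07, adjusted p = 0.0287) and in uncrushed retina (-0.33 ± 0.07, adjusted p = 0.034). These calls ended in 9 and 8 of the 16 fits that left out a library, with adjusted p up to 0.162 and 0.125.

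Among 25 kinases and phosphatases that act on neurofilaments, 1 rose and 4 fell with the inhibitor, and 1 rose and 0 fell with vehicle. Their median log2 changes were -0.02 and -0.01. The share of all tested genes called lower was 2.04% with the inhibitor and 0.861% with vehicle, and 5.33% and 2.63% in either direction. Without uncrushed vehicle replicate 1, 3 genes of this list were called in vehicle retinas, all lower, and with single libraries left out 2 to 5 were lower with the inhibitor. Whether the drugs differed in these counts was not tested. Rock2, a kinase that phosphorylates the head of Nefl, rose by 0.27 ± 0.06 with the inhibitor and 0.33 ± 0.07 with vehicle (adjusted p = 0.00843 and 0.0197). The call in vehicle retinas ended in 3 fits (adjusted p up to 0.166), those without crushed replicate 1, uncrushed replicate 1 and uncrushed replicate 2. The JNK genes Mapk9 and Mapk10, whose products act downstream of DLK, fell in DLKi retinas (log2 change -0.26 ± 0.05 and -0.45 ± 0.10), with -0.20 ± 0.07 and -0.35 ± 0.13 in vehicle retinas (adjusted p = 0.17 and 0.256). Cdk5, a main kinase of the Lys-Ser-Pro triplets, had -0.02 ± 0.05 and -0.07 ± 0.07 and did not pass.

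Of 20 genes for transport and crosslinking of neurofilaments, 2 fell with the inhibitor and 0 were called with vehicle (edgeR; 1 at an unadjusted p under 0.05; 0 by DESeq2 and 0 by limma), with median log2 changes of -0.07 and 0.02. Klc2, a kinesin light chain, fell by 0.27 on the log2 scale with the inhibitor (adjusted p = 0.00748). Kif5a, the neuronal kinesin that carries neurofilaments, fell by 0.38 (adjusted p = 0.0313), a call that ended in 7 fits that each left out a DLKi library (adjusted p up to 0.0994). With vehicle their log2 changes were -0.13 ± 0.08 and -0.36 ± 0.13. Of 17 genes for assembly, turnover and mRNA binding, 0 were called with the inhibitor (edgeR; 4 at an unadjusted p under 0.05; 1 by DESeq2, 0 by limma) and 1 rose with vehicle, with median log2 changes of 0.02 and 0.03. It was the small heat shock gene Hspb8 (0.57 ± 0.13, adjusted p = 0.0185), and its call ended in 5 fits that each left out a vehicle library (adjusted p up to 0.0868).

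Microtubule genes of the axon moved both ways. Of 25, 2 rose and 4 fell with the inhibitor and 2 rose and 2 fell with vehicle, with median log2 changes of -0.17 and -0.10. Tppp3, which promotes tubulin polymerization, fell to 7.77 ± 1.10 nRPKM in crushed DLKi, against 18.7 ± 3.52 in uncrushed DLKi retinas, and to 6.95 ± 1.08 in crushed vehicle retinas, against 16.5 ± 2.10 in uncrushed vehicle retinas (adjusted p = 9.73e-06 and 0.000248). Tuba4a, an alpha tubulin, fell by 0.57 and 0.51 on the log2 scale, though the vehicle call ended without uncrushed vehicle replicate 3 (adjusted p = 0.0621). Tubb6, a beta tubulin that also stands in the list of injury genes, rose by 0.67 ± 0.12 and 0.94 ± 0.15.

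Genes of the axon initial segment, the nodes and the spectrin skeleton that were called after crush were all lower. With the inhibitor 8 of 22 fell and with vehicle 3 of 22, with median log2 changes of -0.13 and -0.04. Scn4b, a sodium channel beta subunit, fell by 2.22 with the inhibitor and 3.24 with vehicle on the log2 scale (adjusted p = 1.03e-05 and 2.29e-05), more than any filament gene. Sptbn4, the spectrin of the initial segment, fell by 0.49 with the inhibitor (adjusted p = 2.69e-05) and had -0.27 ± 0.07 with vehicle (adjusted p = 0.0599). Scn1a, a sodium channel of the initial segment and nodes, fell by 0.80 and 0.93. In vehicle retinas the Scn1a call ended without uncrushed vehicle replicate 2 (adjusted p = 0.0502). Scn4b was higher in crushed DLKi than in crushed vehicle retinas (log2 change 1.59 ± 0.33, adjusted p = 0.0349), at 0.63 ± 0.145 against 0.197 ± 0.166 nRPKM, a call that ended in 9 of 16 fits that left out a library (adjusted p up to 0.187).

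Axon injury genes were called in the other direction. Of 22, 13 rose and 0 fell under each drug, with median log2 changes of 0.77 with the inhibitor and 0.96 with vehicle. On the log2 scale Ecel1, a membrane protease induced in damaged neurons, rose by 6.02 ± 0.20 and 5.97 ± 0.27, and Sprr1a, an axon outgrowth protein, by 7.22 ± 0.32 and 7.25 ± 0.39. Sox11, a transcription factor active in developing neurons, rose by 2.32 ± 0.18 and 3.09 ± 0.23, and the receptor gene Tnfrsf12a by 2.12 ± 0.15 and 2.51 ± 0.20. In crushed retina the inhibitor lowered 4 of 22 (edgeR; 5 by DESeq2, 2 by limma), and 18 of 22 had negative changes. The 4, named after their values were seen, were the transcription factor gene Atf3 (log2 change -1.26 ± 0.17, adjusted p = 0.00226), Tnfrsf12a (-0.81 ± 0.16, adjusted p = 0.0277), the stathmin gene Stmn4 (-0.76 ± 0.15, adjusted p = 0.0287) and Sprr1a (-0.95 ± 0.20, adjusted p = 0.0435). The Atf3 call held whichever library was left out, and the others ended in 5, 5 and 11 of 16 such fits. Of the list, 1 to 4 genes were lower in those fits. The count was 1 without crushed vehicle replicate 1, 2 or 3 or crushed DLKi replicate 5, and 2 without crushed DLKi replicate 1 or 4. In uncrushed retina the inhibitor lowered 2 of 22, namely Stmn4 (log2 change -1.09 ± 0.16, adjusted p = 0.00535) and the transcription factor gene Jun (-0.69 ± 0.15, adjusted p = 0.0402). The Jun call ended in 9 of 16 fits that left out a library (adjusted p up to 0.17).

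**Figure D5:**
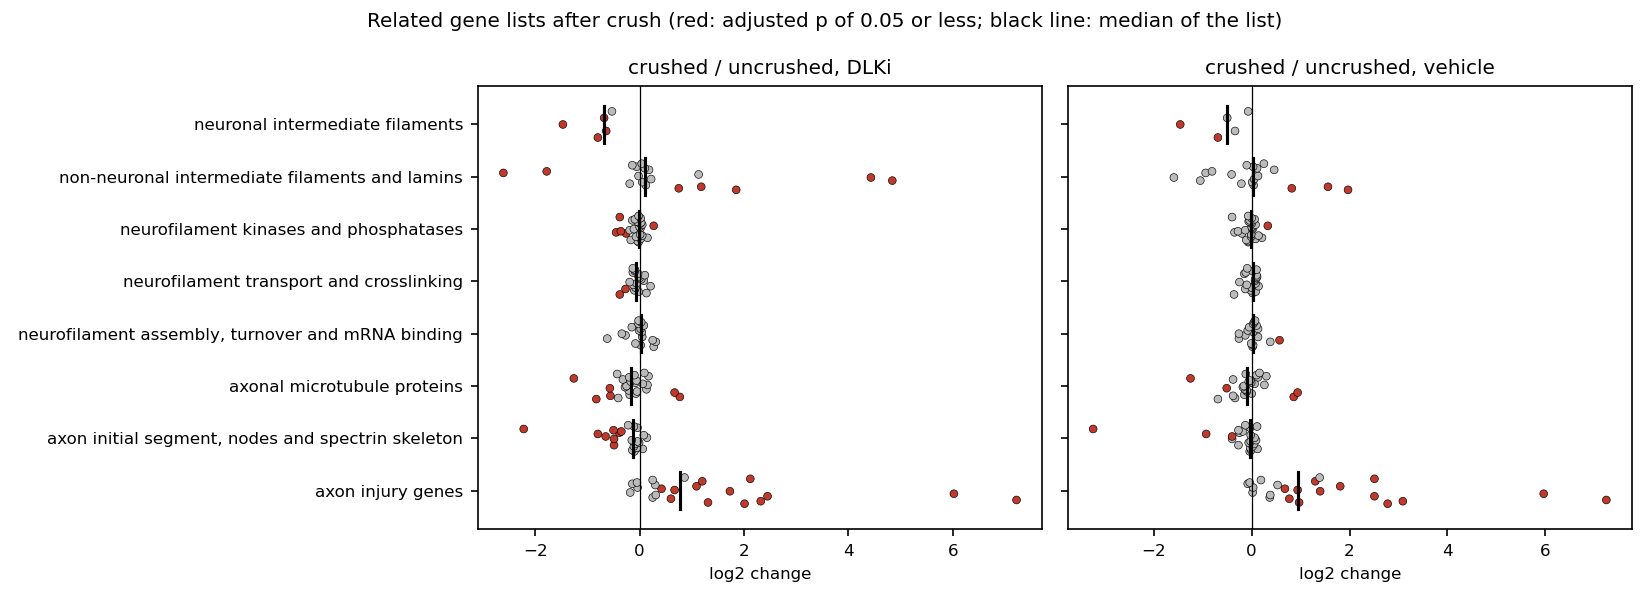
Log2 change after crush (horizontal axes) of each measured gene of the filament group and 7 related lists, with the inhibitor (left) and with vehicle (right); each point is a gene, red marks an adjusted p of 0.05 or less and the black line is the median. The filament genes lie below 0 in both panels, with medians of -0.68 and -0.50, while the injury genes have medians of 0.77 and 0.96 and the kinase, transport and assembly lists have medians within 0.07 of 0.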

How the data were processed

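RNA was taken from whole retina, 0.5 µg of total RNA per library, and sequenced as 50-base reads, per the labels' protocols. The deposited counts are whole numbers of uniquely aligned reads per Entrez gene, per the file headers. The authors' nRPKM values are RPKM scaled by a size factor, per the file headers; their ratio to the counts was constant between libraries (relative spread of at most 2.08e-15). GSNAP and GRCm38 are named in the submitters' processing notes; the aligner settings, annotation release and gene lengths behind nRPKM were not given in the sources used here. Of 36528 identifiers 31049 matched a RefSeq symbol, and the other 5479 held 1.098% to 1.216% of the counts.

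Libraries were grouped by their labels for eye and drug. All 16 were fitted with edgeR 4.0.16 in R 4.3.3 (TMM, filterByExpr, quasi-likelihood F test, a mean for each group, 12 residual and 5.27 prior degrees of freedom); TMM factors were 0.9729 to 1.024. Alternatives used DESeq2 1.42.0, limma 3.58.1 on log2(nRPKM + 0.1), other normalization, no filter, subsets of libraries, each library left out in turn and, added after the data were seen, a block for libraries with neighbouring numbers in their titles. Log2 CPM used a prior count of 2. Ratios were tested on log2 nRPKM by exact permutation within drug, and members were set against ganglion cell markers on log2 CPM. Means are given with SD and log2 changes with SE.

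Named were the 5 members, the 3 genes most like each, and from each list up to 3 called genes of smallest p in each crush effect, with every called gene in the other comparisons if there were up to 3; genes outside this rule are named as background, as neighbours, for a count, or as chosen after their values were seen. A gene that this rule also names is not reported here. The members and lists were chosen with earlier results of these data known. No protein sequence was used here; codon triplets were counted in GENCODE coding sequence.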

Additional observations from a re-analysis of the deposited data

How the results depend on the processing

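Of 240 values of the members in the crush effects under 8 other settings and 16 fits without 1 library, 231 kept their direction and their side of the threshold. The number of called genes moved more than the members did. For crush with the inhibitor it was 620 when the 3 libraries with most lens RNA were left out, against 1034 here. For crush with vehicle it was 263 when they were left out and 281 with only the groups compared, against 510. For the inhibitor in crushed retina it was 420 with DESeq2, 45 with only the groups compared and 53 without the 2 shallowest vehicle libraries, against 98. In uncrushed retina it was 625, 3 and 11 under the same settings and 7 without the lens-rich libraries, against 122. For the difference of crush effects it was 5 with DESeq2, 1 without the shallowest and 0 without the lens-rich libraries, against 2. Leaving out single libraries gave 748 to 1258, 276 to 506, 22 to 144, 17 to 205 and 1 to 2 called genes in these 5 comparisons, in the order given.

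Without the 2 shallowest vehicle libraries the vehicle crush effect was -0.56 for Ina, which then passed, and 0.02 for Prph, and the inhibitor effect in crushed retina was -0.09 for Nefl and -0.05 for Prph. Without the lens-rich libraries Prph had 0.03 with vehicle. The difference of crush effects for Nefh was 0.03 and 0.01 by limma with pseudocounts of 0.1 and 1. The ratio of Nefl to Prph passed with log2 CPM (-0.40) and with log2(nRPKM + 1) (-0.53), and Ina to Prph passed with log2(nRPKM + 1) (-0.35). Against ganglion cell markers on log2(nRPKM + 1), Nefl had -0.08, and Nefm (0.20) and Ina (0.10) no longer passed; without the 2 shallowest libraries Nefm (0.27), Ina (0.20) and Prph (0.52) did not. The cause was not tested.

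With single libraries left out, log2 changes in the vehicle crush effect ranged from -0.58 to -0.16 for Nefm, -0.72 to -0.31 for Ina and -0.62 to 0.16 for Prph. In the inhibitor effect in crushed retina they ranged from -0.09 to 0.07 for Nefl and -0.05 to 0.73 for Prph. In the difference of crush effects they ranged from -0.20 to 0.28 for Nefh, -0.37 to 0.04 for Ina and -0.68 to 0.10 for Prph. Ratios ranged from -0.36 to -0.17 for Nefl to Nefm, -0.25 to -0.07 for Nefl to Ina, -0.50 to -0.22 for Nefl to Prph and -0.21 to 0.02 for Nefm to Prph. Against the markers the ranges were 0.28 to 0.36 for Nefm, 0.19 to 0.26 for Ina and 0.35 to 0.53 for Prph.

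The labels carry no replicate numbers and do not say which retinas share a mouse. Sample numbers in the titles follow each other in 8 couples of a crushed and an uncrushed retina of the same drug, and a paired fit by these numbers was chosen after seeing the data. Deviations from the group means correlated at 0.04 to 0.44 across genes within the pairs, above 0.1 in 6 of 8. In all, 14 of 16 libraries correlated best with their own partner. That each DLKi mouse gave both retinas follows from the labels, while the matching by title number is a hint from the data. With this replicate block the called genes were 2080 for crush with the inhibitor and 1234 with vehicle. Ina (-0.48, adjusted p = 0.000524 in edgeR) then passed with vehicle, while Nefm (-0.30, adjusted p = 0.0698) and Prph under either drug (adjusted p = 0.0528 and 0.842) did not. Within the DLKi pairs, crushed was the lower in 5 of 5 for every member. Within the vehicle pairs it was the lower in 3 of 3 for Nefl, Nefh and Ina, and in 2 of 3 for Nefm and for Prph. The share of all genes with such counts is not given here. The difference of crush effects was 0.03 for Nefh, and 0 of 5 members were called in it. The ratio of Nefl to Ina (-0.17) passed, and Nefm (0.33), Ina (0.23) and Prph (0.46) against the markers did not. The inhibitor effects lie between pairs and were not refitted.

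Prph, with as few as 64 counts in a library, is the member whose depth limits precision most, and 3 vehicle retinas a group limit every comparison with vehicle.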
